A study of Arabidopsis thaliana with 39 samples.

Results

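IRT1 (AT4G19690) and IRT2 (AT4G19680) are 2 iron transporter genes of Arabidopsis thaliana. Both were found by gene identifier in a deposited table of 806 genes from the sorted root epidermis, and both have a value in every group, so 2 of 806 genes are described here. The table is named by the authors as one of differentially expressed genes, and its 806 genes are therefore not an unselected set of expressed genes. The plants were Columbia (Col-0) seedlings of the pWER::GFP line, in which the promoter of WEREWOLF, a gene of the root epidermis, drives a green fluorescent protein, and all groups carry this reporter. Seedlings grew on iron-sufficient (+Fe) medium until day 7, which is 0 h, and were then moved to fresh +Fe medium or to iron-deficient (-Fe) medium. Roots were taken at 0 h and at 6, 12, 18, 24, 30 and 36 h after transfer, turned into protoplasts and sorted for fluorescence, which gave 13 groups of 3 libraries, 39 in all. The +Fe medium held 0.1 mM FeEDTA, and the -Fe medium held 300 μM ferrozine, an iron chelator. The sample labels leave FeEDTA out of -Fe medium, whereas the Methods of the study give both media with it. The comparison of the media at the same time asks which transcripts go with iron supply, and the comparison with 0 h also includes what changes with time and with the transfer itself.

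Arabidopsis takes up iron by acidifying the soil around the root, reducing ferric to ferrous iron at the root surface and importing the ferrous ion through a transporter of the epidermal plasma membrane. IRT1, a member of the ZIP (ZRT, IRT-like protein) family of metal transporters, is the main importer of this route and also carries zinc, manganese, cobalt and cadmium. IRT2 is its closest relative, is found in membranes inside epidermal cells and does not replace IRT1 in plants that lack it. The transcription factor FIT, together with the partner factors bHLH38, bHLH39, bHLH100 and bHLH101, activates IRT1 transcription when iron is short.

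In the RefSeq annotation of TAIR10.1, in which the genes were found by identifier, both genes lie on the + strand of chromosome 4 with 3 exons each. IRT2 spans chr4:10703348-10704838 and IRT1 spans chr4:10707344-10709015, with 2505 bases and 0 annotated genes between them. The study mapped its reads to TAIR10, and the deposited table holds no coordinates to compare. The coding sequences of IRT1, 1044 bases, and IRT2, 1053 bases, are identical at 772 of 1028 aligned bases, or 75.1%. The stretch of the length of 1 read (125 bases) in which they are most alike is shown next, because it bears on whether reads of 1 gene could be counted for the other. It covers coding bases 616 to 740 of IRT1 and 625 to 749 of IRT2, counted from the first base of the start codon, and capitals mark the bases that differ.
IRT1 coding: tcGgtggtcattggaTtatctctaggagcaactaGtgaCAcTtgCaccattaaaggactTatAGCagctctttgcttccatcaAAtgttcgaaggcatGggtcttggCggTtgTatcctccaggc
IRT2 coding: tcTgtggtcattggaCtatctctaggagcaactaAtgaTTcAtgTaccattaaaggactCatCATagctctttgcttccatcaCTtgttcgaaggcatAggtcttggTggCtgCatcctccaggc
These windows differ at 17 of 125 bases. The longest run of identical bases between any parts of the 2 whole transcripts is 22. The plot of coding identity shows where the genes are most and least alike. A search of both transcripts against the whole genome found 0 places other than the gene itself with at least 125 bases at 97% identity or more. The highest identity over at least 125 bases was 89.5% for IRT1, over 152 bases at a place with no annotated gene. The best such match of IRT1 in the IRT2 gene was 83.6% over 152 bases. Exons of IRT1 and IRT2 share no bases with exons of another annotated gene on either strand.

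**Figure D1:**
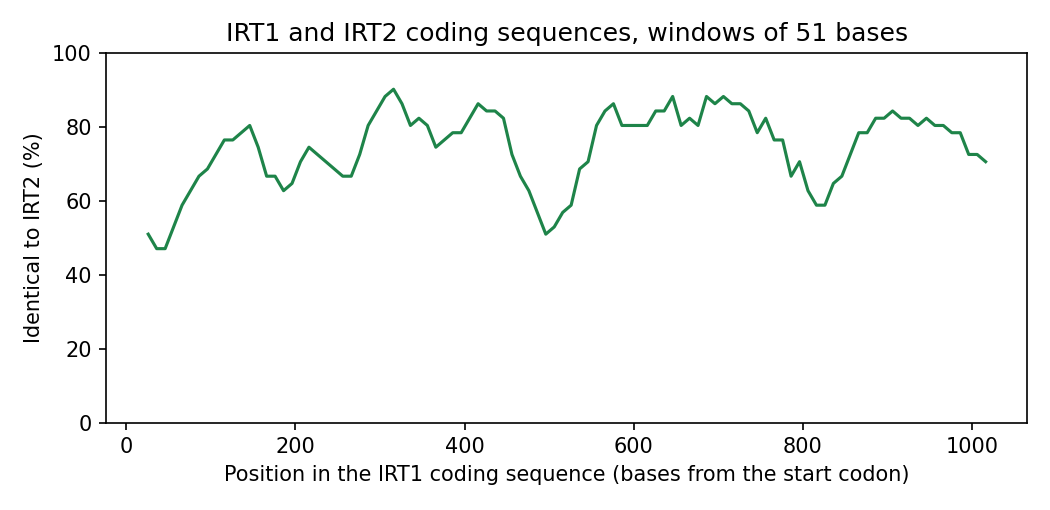
The y axis is the percent of bases of the IRT1 coding sequence that are identical to IRT2 in windows of 51 bases, and the x axis is the window's centre in bases from the IRT1 start codon. Identity is lowest near the start codon, at 47.1%, and over the whole alignment it is 75.1%.

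The 300 bases before each annotated start are shown here because both genes differed in the same direction between the media. They are RefSeq sequence of TAIR10.1, read 5′ to 3′ on the + strand. The IRT1 window is chr4:10707044-10707343 and the IRT2 window is chr4:10703048-10703347. Capitals mark matches, on either strand, to short motifs that are spelled out after the sequences.
IRT1 promoter: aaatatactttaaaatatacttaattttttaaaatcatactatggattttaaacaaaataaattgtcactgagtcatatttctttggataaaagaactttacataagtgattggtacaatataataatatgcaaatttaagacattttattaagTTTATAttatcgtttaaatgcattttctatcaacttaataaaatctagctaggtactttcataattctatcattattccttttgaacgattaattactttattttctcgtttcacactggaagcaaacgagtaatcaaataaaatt
IRT2 promoter: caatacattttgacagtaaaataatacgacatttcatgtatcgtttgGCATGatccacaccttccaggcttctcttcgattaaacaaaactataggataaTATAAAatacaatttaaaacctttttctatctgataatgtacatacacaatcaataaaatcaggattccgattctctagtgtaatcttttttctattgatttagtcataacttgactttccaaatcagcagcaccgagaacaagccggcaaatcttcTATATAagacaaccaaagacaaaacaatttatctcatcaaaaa
TATAAA, a form of the TATA box, occurs once in each window, at 146 to 141 bases before the start of IRT1 on the opposite strand and at 200 to 195 bases before the start of IRT2, and it occurs in 52.9% of 27443 annotated promoters of this length. TATATA, a form added after the sequences were seen and able to overlap the first, occurs only in the IRT2 window, at 43 to 38 bases, and in 35.6% of promoters. CATGC, the core letters bound by the rice factor IDEF1, occurs only in the IRT2 window, on the opposite strand at 253 to 249 bases, and in 20.6% of promoters. The E-box CANNTG, the letters that factors of the bHLH family bind, occurs in neither window and in 61.9% of promoters, and its special case CACGTG, the G-box, occurs in neither and in 7.09%. The absence of these letters holds for these windows of 300 bases alone.

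The values are RPKM, numbers of reads divided by gene length and by the library's reads, and the table gives 1 value per gene and group. The spread among the 3 libraries of a group is therefore unknown, every difference given here is one between single values, and neither a test nor a p-value could be computed. The depth is unknown too. Values under 5 RPKM were multiplied by the exon length in TAIR10.1 and divided by the smallest such product of their group. Of 203 such quotients, 10.3% lay within 0.05 of a whole number, where 10% would by chance. This check takes the smallest product for 1 read. It cannot tell the depth, because how the 3 libraries were combined is unknown. In sorted bulk material, more transcript per cell and more of the cells that express a gene cannot be told apart. Of 9 marker genes of root epidermis, 1 is in the table, and of 9 markers of other root cell types, 0 are. Because the table is named as one of differentially expressed genes, these counts cannot tell whether a missing marker was expressed or how pure the sort was. The 1 epidermal marker is GL2, a factor of hairless epidermal cells, at 189 RPKM at 0 h, 154 to 410 RPKM on +Fe after transfer and 98.1 to 188 RPKM on -Fe. GL2 was lower on -Fe than on +Fe by the size threshold used in the comparisons at 4 of 6 times. Its log2 ratios were -1.26, -1.12, -0.10, -1.64, -1.33 and -0.44 from 6 to 36 h. The shares of all genes that were lower at these times were 23.3%, 23.6%, 11.4%, 30.1%, 26.2% and 13.8%, and the 4 calls of GL2 fall where the share was highest. The part of GL2 in the results for IRT1 and IRT2 was not tested. Its exons share 198 bases with a gene on the opposite strand and 155 bases with one on the same strand. WER itself is not among the genes used here, so the sort could not be checked against the gene whose promoter marks the cells.

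IRT1 was 1 of the lower genes of the table at the start and 1 of the higher ones by the end of the course on -Fe medium. It stood at 19.5 RPKM at 0 h, rank 722 of 806 by level. From 6 to 36 h on -Fe medium its values were 432, 708, 959, 1039, 1763 and 3237 RPKM in order of time. Each of these 6 values lies above the one before it, and the rank of IRT1 among all genes moved from 273 at 6 h to 46 at 36 h. The matching IRT1 values on +Fe medium were 155, 58.8, 35.4, 23.1, 16.8 and 18.7 RPKM. The highest +Fe value, at 6 h, lies under the lowest -Fe value, so the groups of the 2 media do not overlap. How many of the 806 genes separate the media in this way was not counted, so this separation cannot be called unusual. In order of level, the 6 -Fe groups came first from 36 h back to 6 h, then +Fe at 6, 12, 18 and 24 h, 0 h, +Fe at 36 h and +Fe at 30 h. The last 4 of these 13 groups lie between 16.8 and 23.1 RPKM, and whether they differ beyond the spread of libraries could not be judged.

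IRT2 was listed at lower levels than IRT1 in every group. It stood at 9.17 RPKM at 0 h, rank 761 of 806. On -Fe medium the IRT2 values from 6 to 36 h were 29.3, 42.5, 55.0, 63.1, 92.0 and 149 RPKM, again with each value above the one before it. On +Fe medium they were 12.8, 7.63, 6.01, 3.89, 2.06 and 4.84 RPKM. The 2 media do not overlap for IRT2 either, and the share of all genes for which this holds was not counted. The rank of IRT2 on -Fe moved from 701 at 6 h to 466 at 36 h while its +Fe ranks lay between 770 and 795. In order of level, the 6 -Fe groups again came first from 36 h back to 6 h, followed by +Fe at 6 h, 0 h and +Fe at 12, 18, 36, 24 and 30 h. The plot of both levels over time shows the separation of the media from 6 h on.

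**Figure D2:**
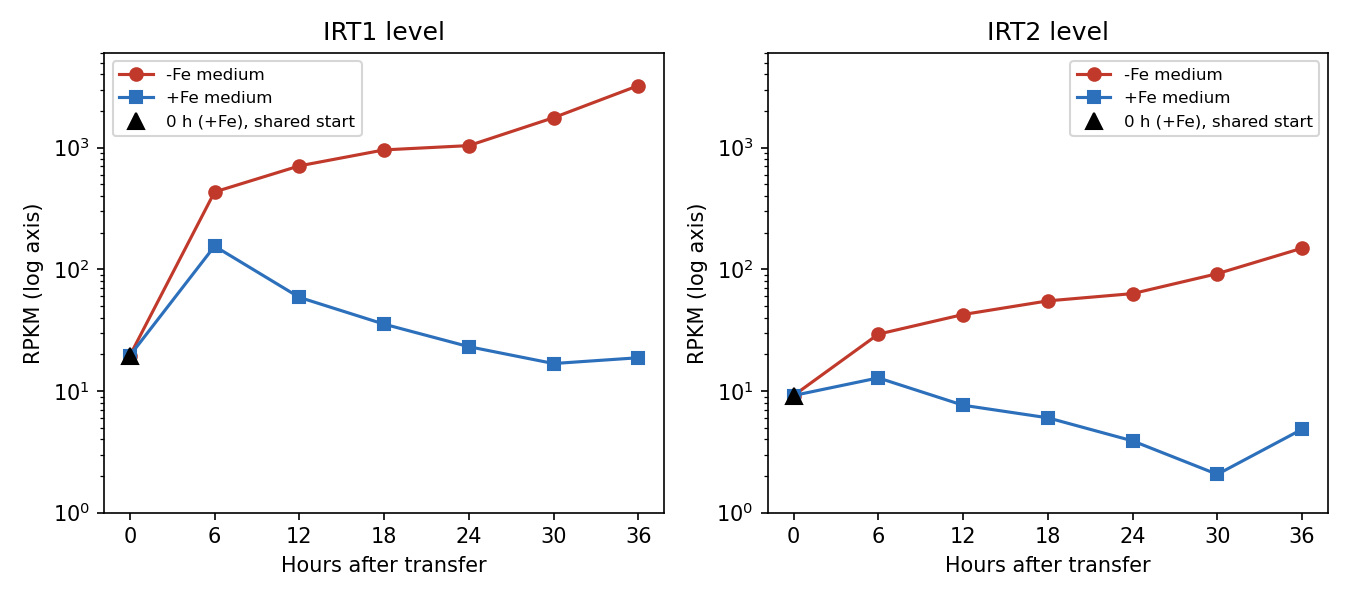
The y axis is the level in RPKM on a log axis and the x axis is hours after transfer, with IRT1 on the left and IRT2 on the right. Each point is the 1 deposited value of a group, with no error available. On -Fe (red circles) IRT1 runs from 432 to 3237 RPKM and IRT2 from 29.3 to 149, on +Fe (blue squares) IRT1 runs from 155 at 6 h to 18.7 at 36 h and IRT2 from 12.8 to 4.84, and the black triangle is the shared 0 h value.

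Differences between groups were measured as the log2 ratio of RPKM + 1, a scale that understates the change of low genes, and a gene was counted as higher or lower when this ratio reached 0.75 or -0.75, the size threshold of the study without its error rate. Between -Fe and +Fe medium at the same time, IRT1 and IRT2 were both counted as higher at 6 of 6 times. The share of all 806 genes counted as higher was 9.18%, 10.8%, 6.82%, 9.31%, 11.3% and 9.8% at the 6 times in order. Counted as higher at every one of the 6 times were 19 genes, or 2.36%, with both members among them.

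The log2 ratios of IRT1 between the media, from 6 to 36 h, were 1.47, 3.57, 4.72, 5.43, 6.63 and 7.36. On the RPKM values themselves IRT1 was 2.79-fold higher on -Fe at the first time, then 12.0-fold, 27.1-fold, 45.0-fold, 105-fold and 173-fold. The difference between the media was thus larger at each later time, and both sides contributed to it, since the -Fe values were higher and the +Fe values mostly lower from one time to the next. Ordered among the 806 genes by the log2 ratio of RPKM + 1, IRT1 came 10th at 6 h and 1st or 2nd at every later time, but with a pseudocount of 0.1 RPKM it came 11th and then between 2nd and 5th. Its mean log2 ratio over the 6 times, 4.86, was the highest of the table with a pseudocount of 1 or 10 RPKM and the 4th with 0.1 RPKM.

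The ratios of IRT2 on the same scale were 1.13, 2.33, 3.00, 3.71, 4.92 and 4.68. The RPKM of IRT2 was 2.29-fold higher on -Fe at the first time, then 5.57-fold, 9.15-fold, 16.2-fold, 44.6-fold and 30.8-fold. Unlike that of IRT1, the IRT2 ratio was largest at 30 h, where its +Fe value was at its lowest, 2.06 RPKM. IRT2 came 19th at 6 h, or 45th with a pseudocount of 10 RPKM, and between 5th and 9th at the later times, and its mean log2 ratio of 3.30 came 6th of 806. The median log2 ratio of all genes lay between -0.024 and 0.15 at the 6 times, as the plot of ratios over time shows.

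**Figure D3:**
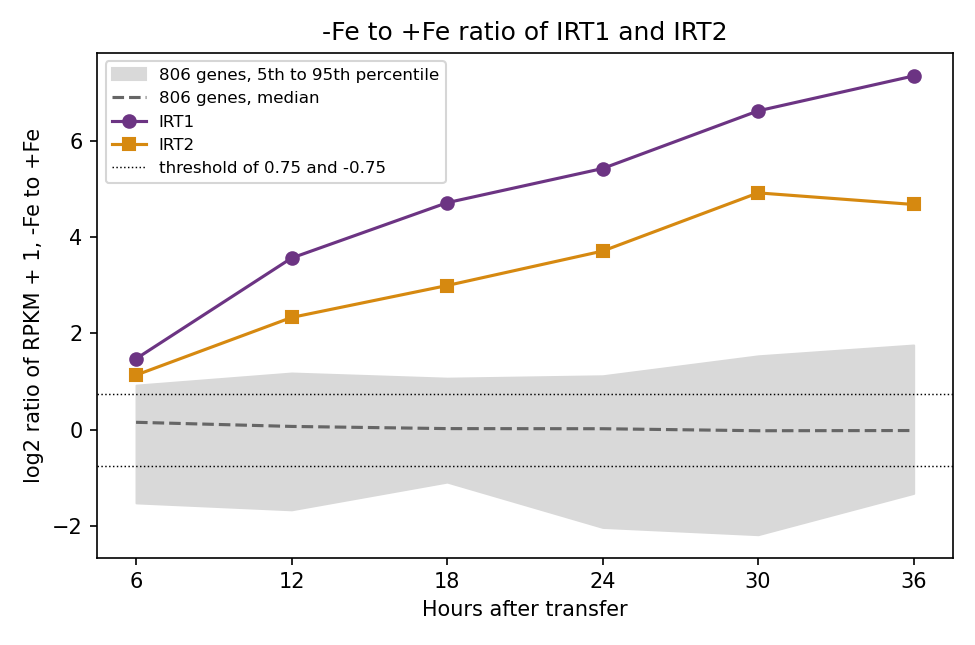
The y axis is the log2 ratio of RPKM + 1 between -Fe and +Fe at the same time and the x axis is hours after transfer, with dotted lines at the threshold of 0.75 and -0.75. IRT1 (purple) runs from 1.47 to 7.36 and IRT2 (orange) from 1.13 to 4.68, both above the grey band that holds the 806 genes from the 5th to the 95th percentile, whose upper edge lies between 0.92 and 1.76.

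Against 0 h, the transcripts of both genes were also counted as higher on -Fe medium at 6 of 6 times, where 15.3%, 11.3%, 10.9%, 4.96%, 5.96% and 9.68% of all genes were higher in order of time, and 2.85% at every one of them. The log2 ratios of IRT1 to 0 h were 4.40, 5.11, 5.55, 5.67, 6.43 and 7.31, so that its level was 22.2-fold that of 0 h by 6 h and 166-fold by 36 h. Those of IRT2 were 1.57, 2.10, 2.46, 2.66, 3.19 and 3.88, or 3.19-fold by 6 h and 16.3-fold by 36 h. By this ratio IRT1 came between 1st and 3rd of 806 at every time, or between 1st and 5th with a pseudocount of 0.1 RPKM, whereas IRT2 came 48th at 6 h, or 77th with 10 RPKM, and between 8th and 12th later.

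From one time to the next on -Fe medium, the largest step of IRT1 was the first, 22.2-fold between 0 and 6 h, and the smallest was 1.08-fold between 18 and 24 h. The later steps of IRT1 were 1.70-fold from 24 to 30 h and 1.84-fold from 30 to 36 h. The steps of IRT2 came in the same order of size, with 3.19-fold over the first interval, 1.15-fold from 18 to 24 h and 1.46-fold and 1.62-fold over the last intervals, each smaller than that of IRT1 except the one from 18 to 24 h. At 6 h IRT1 was at 13.4% and IRT2 at 19.6% of their own 36 h level on -Fe.

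On +Fe medium the calls against 0 h differed between the 2 genes, although both moved in the same direction from each time to the next. The log2 ratios of IRT1 to 0 h were 2.93, 1.55, 0.83, 0.24, -0.20 and -0.052 in order of time, so that it was counted as higher at the first 3 times and as lower at 0 of 6. The call at 18 h was lost with a pseudocount of 10 RPKM and with a threshold of 1, which leaves 2 times. At 6 h after transfer to fresh +Fe medium the IRT1 level was thus 7.96-fold that of 0 h. Seedlings grew under a daily cycle of light and dark, and no group after 0 h was left without transfer. Transfer, age and time of day therefore cannot be told apart in this comparison. Of all genes 28.2%, 26.3%, 16%, 25.2%, 17.6% and 5.58% were counted as higher on +Fe than at 0 h in order of time. The log2 ratios of IRT2 were 0.44, -0.24, -0.54, -1.06, -1.73 and -0.80, so that it was counted as lower at the last 3 times and as higher at 0 of 6. The shares of all genes counted as lower were 23.4%, 19.1%, 13%, 14.9%, 15.5% and 5.33%. These 3 calls of IRT2 rest on values between 2.06 and 4.84 RPKM, and none of them remained with a pseudocount of 10 RPKM in place of 1, while 2 times remained with a threshold of 1 and 2 with each group centred on its median. From 30 to 36 h both genes were higher at the later time on +Fe as well, IRT2 2.35-fold and IRT1 1.12-fold. The 3 comparisons share values, since each uses 0 h or the +Fe groups, and so they are not separate evidence of one another.

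RPKM is scaled by gene length, so the levels of both genes can be set side by side. The IRT1 level was 2.12 times that of IRT2 at 0 h. On -Fe medium it was 14.8, 16.7, 17.4, 16.5, 19.2 and 21.7 times the IRT2 level in order of time. On +Fe medium it was 12.1, 7.71, 5.89, 5.95, 8.15 and 3.87 times that level. The ratio was thus higher after transfer to either medium than at 0 h, and at each time it was higher on -Fe than on +Fe. As a share of the summed level of both genes, IRT1 made up 68.0% at 0 h, between 93.7% and 95.6% on -Fe and between 79.5% and 92.4% on +Fe. The log2 ratio between the media was larger for IRT1 than for IRT2 by 0.34, 1.24, 1.72, 1.72, 1.71 and 2.67 from 6 to 36 h. These differences have no error and were not tested.

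**Figure D4:**
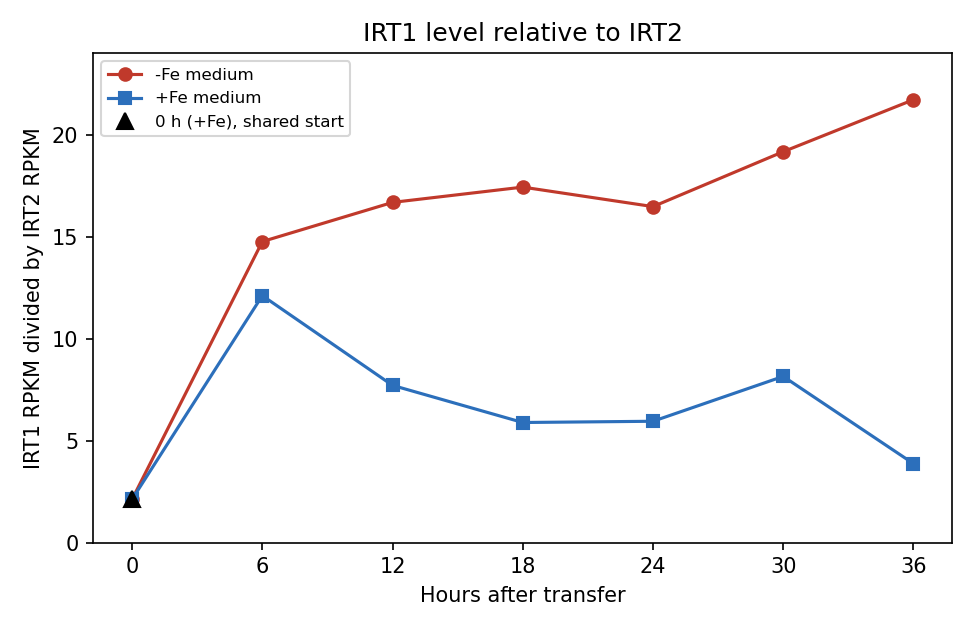
The y axis is the RPKM of IRT1 divided by the RPKM of IRT2 and the x axis is hours after transfer. From the shared 0 h value of 2.12 (black triangle) the ratio runs to 21.7 on -Fe (red circles) and to 3.87 on +Fe (blue squares) at 36 h, and the -Fe point is the higher at each of the 6 times.

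Over the 13 groups, the log2(RPKM + 1) values of IRT1 and IRT2 had a Pearson correlation of 0.977 and a Spearman correlation of 0.956. Within the 6 -Fe groups the Pearson correlation was 0.999, and within the 7 +Fe groups, 0 h included, it was 0.731. These are descriptions of groups that share medium, time order and the scaling to a read total.

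The gene whose profile over the 13 groups was most like that of IRT1 was MTP3 (AT3G58810), a zinc transporter of the vacuole membrane, at r = 0.994. It was also the gene most like IRT2, at r = 0.978. MTP3 stood at 8.52 RPKM at the start, its -Fe level at 6 and 36 h was 47.8 and 158 RPKM, and its +Fe level was 24.1 and 6.51 RPKM. Like IRT1, then, it was higher on +Fe at 6 h than at 0 h, with a log2 ratio of 1.40. After MTP3, the genes most like IRT1 were AT2G14247, which RefSeq names uncharacterized, at r = 0.992, RBOHD, an oxidase of the plasma membrane that makes reactive oxygen, at 0.978, bHLH39 at 0.969 and the uncharacterized AT5G05250 at 0.957. Those most like IRT2 after MTP3 were bHLH101 at 0.965, AT2G14247 at 0.964, FRO3, a ferric reductase of mitochondria, at 0.952 and GRF11, a 14-3-3 protein, at 0.951. IRT1 and IRT2 were left out of each other's ranking. Their own correlation, 0.977, lies above that of bHLH39 with IRT1 and that of bHLH101 with IRT2. Correlations of at least 0.9 were found for 13 of the other genes with IRT1 and for 15 with IRT2, while the median over all genes was -0.042 and 0.024. AT2G14247 stood at 2.02 RPKM at the start and at 41.4 and 238 RPKM on -Fe at 6 and 36 h, but its exons share 233 bases with a gene on the opposite strand.

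Of 60 other genes listed for their known relation to IRT1, 16 are in the table, and their -Fe to +Fe ratios are set beside the members here and in the plot of related genes. The lists were chosen with earlier results of these data known, and the table is named as one of differentially expressed genes. Counts and medians of the listed genes are therefore descriptions and not a test of the lists. Among the regulators of IRT1 transcription, 6 of 16 are in the table, of which 2 were counted as higher on -Fe at the first time, 3 at the next and 4 at each later one, with 0 lower at any time. Of all genes 9.18%, 10.8%, 6.82%, 9.31%, 11.3% and 9.8% were counted as higher in order of time. The median log2 ratio of these regulators ran from 0.55 at the first time to 3.21 at the last, where that of all genes was 0.15 and -0.019. The -Fe level of bHLH39 at 6 and 36 h was 170 and 1080 RPKM, against 105 and 41.0 RPKM on +Fe, with log2 ratios of 0.69 and 4.69. For bHLH101 the -Fe level at these times was 63.1 and 214 RPKM, with log2 ratios of 0.78 and 3.53. At 36 h bHLH38 was at 175 RPKM on -Fe and listed at 0 on +Fe, and at 30 h its log2 ratio was 6.26. AT1G74770, which RefSeq names a zinc ion binding protein, had ratios of -0.30 and 2.89 on this scale at the first and the last time. FIT, named here after its values were seen, was at 851 RPKM at 0 h and between 578 and 1084 RPKM in the other groups. The log2 ratio of FIT lay between -0.079 and 0.41. BTS, also named after its values were seen, had log2 ratios between -0.21 and 0.7496 and was counted as higher or lower at 0 of 6 times. The list was not split by whether a gene raises or lowers IRT1 transcription. At 6 h the log2 ratio of IRT1, 1.47, was thus above those of bHLH39, bHLH101 and FIT and below that of bHLH38, 3.29. That of bHLH38 rests on a +Fe value of 0.34 RPKM, which is below the pseudocount, so this order is uncertain.

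**Figure D5:**
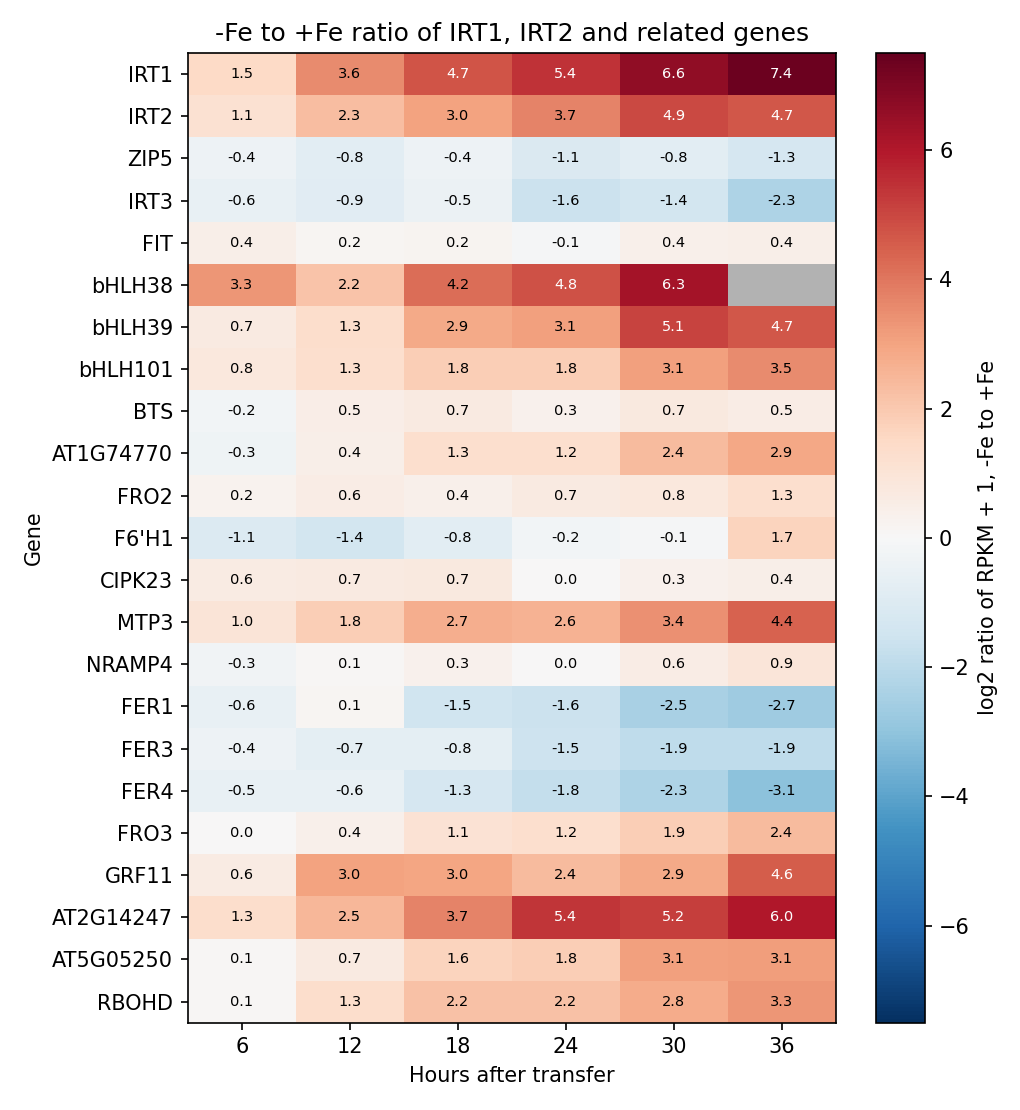
Each row is a gene and each column a time after transfer, and colour and number give the log2 ratio of RPKM + 1 between -Fe and +Fe at that time, red where higher on -Fe and blue where lower. The first rows show IRT1, from 1.47 to 7.36, and IRT2, from 1.13 to 4.68. The grey cell is bHLH38 at 36 h, which is listed at 0 on +Fe.

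The ZIP relatives of IRT1 and IRT2 lay on the other side. Only 2 of 13 are in the table, IRT3 and ZIP5, both transporters known to respond to zinc shortage, and both were counted as lower on -Fe at 12, 24, 30 and 36 h and at neither other time. Of all genes 23.3%, 23.6%, 11.4%, 30.1%, 26.2% and 13.8% were counted as lower in order of time. The median log2 ratio of the pair ran from -0.47 at the first time to -1.79 at the last. IRT3 stood at 68.3 RPKM at the start and, at 24 h, at 33.2 RPKM on -Fe and 103 RPKM on +Fe, a log2 ratio of -1.61 that became -2.32 by 36 h. ZIP5 stood at 65.0 RPKM at the start and, at 36 h, at 21.8 RPKM on -Fe and 53.7 RPKM on +Fe, a log2 ratio of -1.26. At 0 h, IRT3 and ZIP5 were thus both above IRT1 and IRT2 in level, and on -Fe at 36 h both were below them.

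Among the partners of IRT1 in iron mobilisation and uptake, 2 of 10 are in the table. FRO2, the root surface reductase that supplies ferrous iron to IRT1, stood at 354 RPKM at the start, and its -Fe level at 6 and 36 h was 346 and 778 RPKM. Its log2 ratio was 0.25 at the first time and 0.81 and 1.26 at the last 2, at which it was counted as higher, as were 11.3% and 9.8% of all genes. In level FRO2 stood above IRT1 at 0 h and below it on -Fe from 6 h on. F6'H1, an enzyme of the synthesis of iron-binding coumarins, was counted as lower on -Fe at 6, 12 and 18 h and as higher at 36 h, with log2 ratios of -1.05 and 1.65 at the first and the last time. Of all genes 23.3%, 23.6% and 11.4% were counted as lower at 6, 12 and 18 h, and 9.8% as higher at 36 h. On +Fe at 6 h F6'H1 was at 288 RPKM, against 43.0 RPKM at 0 h. Of 5 genes that act on the IRT1 protein, 1 is in the table. This is CIPK23, a kinase that phosphorylates IRT1, which was counted as higher or lower at 0 of 6 times, with log2 ratios between 0.039 and 0.71.

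Of 16 genes that handle the metals carried by IRT1, 5 are in the table, with a median log2 ratio of -0.39 at the first time and -1.88 at the last. Besides MTP3, counted as higher at 6 of 6 times with ratios of 0.96 at the first time and 4.40 at the last, they hold the ferritins, the iron stores of plastids. FER1, FER3 and FER4 were each counted as lower on -Fe at 4 of 6 times, 18 to 36 h, and their log2 ratios at 36 h were -2.66, -1.88 and -3.05. Of all genes 11.4%, 30.1%, 26.2% and 13.8% were counted as lower at these 4 times. The fifth is NRAMP4, an exporter of iron from the vacuole, counted as higher at 36 h alone, at 0.88, and named here after its values were seen. At 36 h, 9.8% of all genes were counted as higher, and 2.36% were at every one of the 6 times. Exons of bHLH38, bHLH101, AT1G74770, FRO3 and F6'H1 share between 24 and 471 bases with those of a gene on the opposite strand, and the use of strand in counting is not given in the sources used here. Exons of FER4 share 118 bases with a gene on the same strand. The values of these genes are therefore less certain than those of IRT1 and IRT2, whose exons overlap no other gene.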

How the data were processed

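RNA of sorted root epidermis protoplasts was sequenced by the authors as single-end reads of 125 bases. Reads were assessed with FastQC, trimmed, mapped to TAIR10 with TopHat2 and summarised with RSubread. The deposited values are RPKM, made by the authors, 1 per gene and group of 3 libraries. Neither the way the libraries were combined nor the read total, the annotation or the strand setting of the counting is given in the sources used here. The Methods name a low-input cDNA kit and the sample labels a directional poly(A) kit. The authors used edgeR on the libraries to call genes. The tests on values per library could not be run on 1 value per group.

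From the deposited RPKM, log2 ratios were taken with a pseudocount of 1 RPKM and no filter, over all 806 genes, with a size threshold of 0.75. Named genes were IRT1 and IRT2 and the 5 genes, other than these, with the highest Pearson correlation with each over 13 groups. Up to 4 per list with the largest absolute mean log2 ratio over 6 times were named too. The members and lists were chosen with earlier results of these data known. Alternatives were pseudocounts of 0.1 and 10 RPKM, group medians as centre, a threshold of 1, a minimum mean of 1 RPKM, other controls, other correlations and the course without 36 h. All 806 identifiers matched RefSeq locus tags of TAIR10.1, which gave gene models and sequences. The calculations were tested on simulated data with large changes, little noise and no low starting values. That run checked the code and not the calls at low RPKM. The calculations were run with scipy 1.17.1, pandas 2.3.3, numpy 2.4.6, matplotlib 3.10.9, Biopython 1.88 and blastn 2.17.0 under Python 3.11.15.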

Additional observations from a re-analysis of the deposited data

Results flagged for a closer look

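The net change of both genes from 6 h to 36 h was opposite in sign on the 2 media. From 6 h to 36 h the log2 level of IRT1 changed by 2.90 on -Fe and by -2.98 on +Fe, a difference of 5.88. That of IRT2 changed by 2.31 on -Fe and by -1.24 on +Fe, a difference of 3.55. With 1 value per group neither difference was tested, and on +Fe the start of this interval is the 6 h value, which for IRT1 was 7.96 times that of 0 h. Within this interval the last step, from 30 to 36 h, was upward on both media, and for IRT2 it was larger on +Fe, 2.35-fold, than on -Fe, 1.62-fold.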

How the results depend on the processing

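All 6 log2 ratios of IRT1 and all 6 of IRT2 between -Fe and +Fe stayed positive and past the threshold under every alternative tried, and both genes were counted as higher against the same-time control and against 0 h on -Fe under each of them. Both counts stayed at 6 of 6 times. The control mattered most for IRT1 at 6 h, where the ratio was 1.47 against +Fe at the same time, 4.40 against 0 h and 3.65 against the mean of the 7 +Fe groups, and for IRT2 at 30 h, where these ratios were 4.92, 3.19 and 3.75. A pseudocount of 10 RPKM brought the IRT2 ratio to 0.79 at 6 h and to 3.08 at 30 h, against 4.92. The 3 times at which IRT2 was lower on +Fe than at 0 h became 0 with a pseudocount of 10 RPKM, which is above the values themselves, 2.06 to 4.84 RPKM, and 2 with a threshold of 1 or with group medians as centre. The 3 times at which IRT1 was higher there became 2 with a pseudocount of 10 RPKM or a threshold of 1. In an alternative chosen after seeing the data, the rank of IRT1 by its mean ratio between the media moved from 1 to 4 with a pseudocount of 0.1 RPKM, and that of IRT2 was 6 with 0.1 RPKM and 7 with 10 RPKM. Over all genes, a threshold of 1 left 30 of 74 genes higher on -Fe at 6 h, 54 of 87 at 12 h, and 50 of 92 lower at 18 h and 69 of 111 at 36 h. With every group centred on its median, 121 in place of 75 genes were higher at 24 h, the share of higher among counted genes was 34.8% in place of 23.6%, and the median ratio of all genes at that time was 0.22 in place of 0.018. The cause was not tested. Of the 5 genes most like IRT1, 3 were shared with the 5 found by Spearman correlation and 3 with those found on RPKM, and for IRT2 these were 2 and 3. No paired analysis was possible because the table gives 1 value per group and no value per library, and for the same reason no replicate could be left out. What the depth limits is unknown.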
